A study of Arabidopsis thaliana with 14 samples.

Results

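Cytosine methylation in the CHH context, where H is any base but G, was examined in windows of 300 nt that carried more of it in endosperm than in embryo. A gain window was a window of Chr1 to Chr5 with at least 50 CHH calls in both the embryo and the endosperm library of Ler x Ler, or of Cvi x Cvi, whose CHH methylation was 10 or more points higher in the endosperm. A call is the reading of 1 cytosine in 1 sequenced read as methylated or unmethylated. Of 431960 windows with enough calls in at least 1 of these crosses, 3319 (0.768%) were gain windows, made up of 1950 windows that gained in Ler x Ler and 1458 that gained in Cvi x Cvi, with 89 counted in both. The opposite difference was more frequent, with 18412 windows at least 10 points lower in the endosperm of Ler x Ler or Cvi x Cvi. The windows were chosen by the CHH values of these 4 libraries, so the values of a gain window in the strain that chose it are a description and were not tested.

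Embryo and endosperm were dissected 6 days after pollination from seeds of greenhouse-grown Arabidopsis thaliana and their DNA was sequenced after bisulfite treatment, which converts unmethylated cytosine. The strains were Col-0 (Col), Ler and Cvi, and crosses are written with the female parent first. Ler x Ler, Cvi x Cvi and Col x Col are within a strain, and Cvi x Ler, Ler x Cvi, Col x Cvi and Cvi x Col are reciprocal hybrids. The 7 crosses and the pair of tissues gave 14 libraries, 1 for each cross and tissue, each from pooled seeds. No group had a replicate, so every comparison below is between libraries, and variation between seed pools cannot be told apart from a difference between tissues.

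CHH methylation is not copied from the opposite strand at replication and has to be placed again after each division. In Arabidopsis this is done by DRM2, which small RNAs guide to short elements and element edges in RNA-directed DNA methylation, and by CMT2, which follows dimethylated histone H3 in the bodies of long, silent transposons. CG methylation is maintained by MET1 and CHG methylation mostly by CMT3. The endosperm, the nourishing tissue of the seed, inherits a maternal genome from which the glycosylase DEMETER removed methylation in the central cell, and its DNA is less methylated in CG than that of the embryo. This background could be seen in the libraries: in windows with 50% CG methylation or more in the embryo, the median CG difference, endosperm minus embryo, was between -16.5 and -33.0 points in the 7 crosses.

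The sequences of 9 gain windows are shown because the results below turn on them. The first is a window of a degenerate copy of the MADS-box gene AGL28 that was higher in endosperm in 4 crosses, and the second belongs to another copy of that gene. The next pair gained in both strains, and the last 5 had the largest gains in Ler x Ler, in Cvi x Cvi or in the Cvi x Ler hybrid. Sequences are the plus strand of the TAIR10.1 reference (RefSeq), 5′ to 3′, and are not those of Ler or Cvi. A capital C marks a CHH cytosine of the plus strand and a capital G a cytosine that is CHH on the minus strand.
chr2:10644601-10644900, exon of pseudogene AT2G25025: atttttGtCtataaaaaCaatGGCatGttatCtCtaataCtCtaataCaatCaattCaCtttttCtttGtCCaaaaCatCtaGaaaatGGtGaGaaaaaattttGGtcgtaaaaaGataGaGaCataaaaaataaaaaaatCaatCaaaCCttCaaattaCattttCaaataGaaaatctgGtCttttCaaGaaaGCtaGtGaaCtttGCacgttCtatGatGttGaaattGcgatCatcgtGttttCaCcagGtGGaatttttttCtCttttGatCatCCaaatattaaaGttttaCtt
chr3:12879001-12879300, exon of pseudogene AT3G31902: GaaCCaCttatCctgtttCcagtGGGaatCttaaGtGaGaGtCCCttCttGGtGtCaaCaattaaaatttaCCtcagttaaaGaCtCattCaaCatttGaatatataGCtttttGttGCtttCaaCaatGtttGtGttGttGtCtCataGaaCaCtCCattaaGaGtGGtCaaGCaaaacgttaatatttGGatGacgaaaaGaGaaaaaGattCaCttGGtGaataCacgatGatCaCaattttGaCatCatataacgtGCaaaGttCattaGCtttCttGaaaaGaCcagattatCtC
chr5:10757001-10757300, exon of pseudogene AT5G28700: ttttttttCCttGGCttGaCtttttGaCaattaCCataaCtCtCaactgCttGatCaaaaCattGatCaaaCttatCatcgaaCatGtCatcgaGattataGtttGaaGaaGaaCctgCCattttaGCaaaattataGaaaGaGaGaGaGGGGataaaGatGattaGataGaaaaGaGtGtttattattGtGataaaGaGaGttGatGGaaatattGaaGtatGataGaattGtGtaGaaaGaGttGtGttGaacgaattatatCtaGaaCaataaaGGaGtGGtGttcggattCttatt
chr5:12927601-12927900, 6582 nt downstream of AT5G34581: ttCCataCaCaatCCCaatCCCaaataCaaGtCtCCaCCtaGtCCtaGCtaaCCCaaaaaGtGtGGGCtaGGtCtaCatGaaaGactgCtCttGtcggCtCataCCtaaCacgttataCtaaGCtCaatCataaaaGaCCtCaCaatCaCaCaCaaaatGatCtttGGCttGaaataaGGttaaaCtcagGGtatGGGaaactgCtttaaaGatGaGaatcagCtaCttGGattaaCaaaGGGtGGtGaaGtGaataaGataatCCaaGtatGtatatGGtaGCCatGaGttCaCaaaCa
chr3:14762201-14762500, 1571 nt upstream of CHR38: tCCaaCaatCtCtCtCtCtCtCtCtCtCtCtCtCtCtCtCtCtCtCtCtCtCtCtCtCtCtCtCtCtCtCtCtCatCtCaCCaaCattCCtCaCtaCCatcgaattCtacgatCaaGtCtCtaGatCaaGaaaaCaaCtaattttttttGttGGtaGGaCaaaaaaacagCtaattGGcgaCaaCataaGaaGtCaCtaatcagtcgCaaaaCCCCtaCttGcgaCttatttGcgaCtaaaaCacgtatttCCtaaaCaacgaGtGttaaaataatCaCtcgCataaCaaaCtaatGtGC
chr5:10949001-10949300, 5622 nt upstream of AT5G28920: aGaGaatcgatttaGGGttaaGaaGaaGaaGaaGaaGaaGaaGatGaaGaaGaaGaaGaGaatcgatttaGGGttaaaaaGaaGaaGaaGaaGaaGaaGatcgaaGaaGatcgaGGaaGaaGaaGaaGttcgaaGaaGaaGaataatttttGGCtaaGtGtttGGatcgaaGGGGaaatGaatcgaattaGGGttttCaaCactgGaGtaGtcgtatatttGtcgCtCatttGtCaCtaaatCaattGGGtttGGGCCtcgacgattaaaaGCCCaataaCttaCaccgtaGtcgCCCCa
chr5:18415801-18416100, coding exon of AT5G45450: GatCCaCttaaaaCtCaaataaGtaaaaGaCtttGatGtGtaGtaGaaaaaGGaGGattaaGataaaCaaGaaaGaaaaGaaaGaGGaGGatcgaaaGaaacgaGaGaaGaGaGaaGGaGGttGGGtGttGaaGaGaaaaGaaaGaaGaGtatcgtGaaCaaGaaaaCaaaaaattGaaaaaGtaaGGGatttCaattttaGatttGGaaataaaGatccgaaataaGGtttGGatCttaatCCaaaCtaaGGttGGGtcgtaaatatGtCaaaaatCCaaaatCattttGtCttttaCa
chr3:15000801-15001100, 5512 nt upstream of AT3G42940: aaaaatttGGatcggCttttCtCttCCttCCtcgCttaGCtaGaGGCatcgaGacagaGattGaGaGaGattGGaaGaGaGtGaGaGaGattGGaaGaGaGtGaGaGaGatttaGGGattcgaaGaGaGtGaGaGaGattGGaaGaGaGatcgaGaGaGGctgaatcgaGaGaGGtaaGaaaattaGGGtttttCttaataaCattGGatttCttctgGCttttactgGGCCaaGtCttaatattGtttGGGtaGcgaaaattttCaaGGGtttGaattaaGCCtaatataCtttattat
chr3:13633001-13633300, exon of pseudogene AT3G33072: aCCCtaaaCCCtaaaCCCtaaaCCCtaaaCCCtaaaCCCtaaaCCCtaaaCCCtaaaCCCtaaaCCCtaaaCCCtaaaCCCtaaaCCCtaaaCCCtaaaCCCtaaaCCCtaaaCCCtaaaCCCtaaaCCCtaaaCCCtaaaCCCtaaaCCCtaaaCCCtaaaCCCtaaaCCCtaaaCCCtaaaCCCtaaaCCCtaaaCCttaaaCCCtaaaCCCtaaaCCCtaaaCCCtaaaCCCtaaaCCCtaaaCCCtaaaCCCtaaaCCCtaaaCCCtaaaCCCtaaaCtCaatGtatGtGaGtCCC
The number of sites that can be read in the CHH context ranged from 71 in the AT2G25025 window to 128 in the AT3G33072 window. The sites were unevenly split between strands in several of them, with 4 of the 128 on the minus strand at AT3G33072 and 67 of 86 on the minus strand at the window upstream of AT5G28920. All gain windows had a median of 83 CHH sites, against 78 for all windows with enough calls.

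Among the Ler gain windows, median CHH methylation was 8.35% in the Ler x Ler embryo and 22% in the endosperm, with a median gain of 13 points (quartiles 11.1 and 15.8) and a largest gain of 66.6 points. Among the Cvi gain windows the medians were 5% in the Cvi x Cvi embryo and 18.9% in the endosperm, with a median gain of 12.7 points (quartiles 11.1 and 15.8) and a largest gain of 74.9 points. Most gains were therefore just past the threshold, and 186 Ler and 158 Cvi gain windows reached 20 points. The smallest gain inside the threshold was 10 points in each strain, and the largest outside it was 9.998 points in Ler x Ler and 9.995 points in Cvi x Cvi. There were 432 Ler windows at 10 to 11 points beside 517 at 9 to 10 points, and 330 Cvi windows beside 398. The embryo library held no methylated CHH call in 102 Ler and 209 Cvi gain windows.

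Gain windows were thinly covered in 1 library of each pair. The Ler gain windows had a median of 321 CHH calls in the embryo and 86 in the endosperm, against 349 and 121 for all windows with enough calls. For the Cvi gain windows the medians were 100 in the embryo and 181 in the endosperm, against 120 and 255. Under 100 calls in 1 of the libraries were behind 62.1% of Ler and 57.9% of Cvi gain windows, compared with 39.1% and 40.9% of all windows. The Wilson 95% intervals of embryo and endosperm, which cover counting error only, did not overlap in 1543 Ler gain windows (79.1%) and 1007 Cvi gain windows (69.1%). Among windows with 10% CHH methylation or more in either tissue, the share that gained was 10.2% where the shallower Ler library had 50 to 99 calls, 4.66% at 100 to 199 calls and 2.2% from 200 calls. The shares were 7.2%, 3.49% and 1.65% in Cvi x Cvi. The share that was at least 10 points lower went the other way with depth, from 24.7% to 35.2% in Ler x Ler and from 34.1% to 41.2% in Cvi x Cvi. The share that gained was thus higher where fewer calls were read, and what part of the gains came from counting error was not tested. The libraries of a pair may also have been read at different cytosines of a window, which was not tested either.

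Libraries differed widely in depth, with 1182290 CHH calls, summed over windows, in the shallowest (Col x Col endosperm) and 332589406 in the deepest (Ler x Cvi embryo). The endosperm libraries of Col x Col and of every hybrid except Cvi x Ler reached 50 calls in 28 to 254 gain windows, whereas the other 10 libraries did so in 2446 to 3292. The Cvi x Ler embryo stood apart. Its CG levels correlated across windows with those of the Ler x Ler embryo at r = 0.661 and of the Cvi x Cvi embryo at r = 0.775, while the other hybrid embryos gave 0.855 to 0.933; windows share libraries and neighbours, so these are descriptions. In a search made after the values were seen, CG profiles of 400 kb blocks were compared with the Ler x Ler embryo at offsets of up to 500 kb. A match at an offset of more than 2 kb, over 8 robust SDs above the median of the other offsets, was found in 95 of 282 blocks (33.7%) of the Cvi x Ler embryo and in 0 to 4 blocks of each of 8 other libraries. Part of its calls may therefore be listed at positions other than their own, and the level of a single window in this embryo may not belong to that window. The counts and named windows of Cvi x Ler are for this reason also given with the Ler x Cvi embryo in its place, an alternative that for most of them was chosen after the values were seen.

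The first question was whether a gain seen in one strain was present in the other. Of the 1950 Ler gain windows, 1035 had enough calls in Cvi x Cvi, and 89 of these (8.6%, Wilson 95% interval 7.04 to 10.5) were also 10 or more points higher in the Cvi x Cvi endosperm. The background, the share of all windows that gained in Cvi x Cvi, was 0.463%. A fall of 10 or more points was found in 115 of the same windows (11.1%). Median CHH methylation of the 1035 windows was 10.1% in the Cvi x Cvi embryo and 10.5% in the endosperm, and the median difference was 0 points (quartiles -4.40 and 4.20). The Ler gain windows thus shifted, as a group, in neither direction in Cvi x Cvi. In the reverse comparison, 762 Cvi gain windows had enough calls in Ler x Ler, and 89 (11.7%, interval 9.59 to 14.2) gained there against 0.571% of all windows. Another 69 (9.06%) were 10 or more points lower, the medians were 9.62% in embryo and 10.4% in endosperm, and the median difference was again 0 points (quartiles -3.32 and 4.44).

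Because most windows of the genome carry almost no CHH methylation and cannot differ by 10 points in either direction, the same counts were taken over windows with 10% CHH methylation or more in either library of the cross, a limit chosen after the values were seen. In Cvi x Cvi, 698 Ler gain windows passed it, of which 12.8% gained and 16.5% were lower, beside 4.31% and 36.7% of all such windows. In Ler x Ler, 484 Cvi gain windows passed it, of which 18.4% gained and 14.3% were lower, beside 6.29% and 30% of all such windows. Methylated windows in general were lower in endosperm much more often than higher, and gain windows chosen in the other strain were near balance. These windows were not matched to the others in depth, base content or embryo level, and what part those have in the difference of shares was not tested.

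Each window was also tested with a two-sided Fisher's exact test on its methylated and unmethylated calls, adjusted by Benjamini-Hochberg over all windows tested. The test compares 2 libraries, treats calls of one read as independent and does not speak for the tissues. A gain of 10 points with an adjusted p under 0.01 in Cvi x Cvi was found in 51 of the 1035 Ler gain windows, against 0.171% of all windows. In Ler x Ler it was found in 57 of the 762 Cvi gain windows, against 0.227% of all windows. Falls of this size passed the same test in 72 and 48 of these windows, and in 9575 of 315131 and 6944 of 341661 of all windows. Of the 3319 gain windows, 1708 had enough calls in both strains. Opposite differences of 10 points or more were found in 184 of these, 115 higher in Ler x Ler endosperm and 69 higher in Cvi x Cvi endosperm. Falls of 10 points or more were found in 3.94% of all windows in Cvi x Cvi and 2.72% in Ler x Ler.

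Hybrids were not used to choose the windows. In Cvi x Ler, the 1 hybrid with both libraries deep, 2101 gain windows of either strain had enough calls. A gain was present in 258 of them (12.3%, interval 10.9 to 13.8) beside 0.783% of all windows, and a fall in 199. Median CHH methylation was 7.58% in the Cvi x Ler embryo and 8.11% in the endosperm. Fisher's exact test supported 185 of the gains (8.81%), beside 0.432% of all windows. With the Ler x Cvi embryo in place of the Cvi x Ler embryo, 206 of 2441 windows gained (8.44%, interval 7.40 to 9.61) beside 0.425% of all windows, and 246 were lower, so that falls outnumbered gains. Of these gains 162 passed Fisher's exact test (6.64%), beside 0.273% of all windows. Ler and Cvi gain windows had similar shares in this hybrid, with 148 of 1209 (12.2%) and 132 of 966 (13.7%), or 8.02% and 10.1% against the Ler x Cvi embryo.

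The windows that gained in both strains were few. Of the 89, 74 had enough calls in Cvi x Ler, and 22 of these (29.7%, interval 20.5 to 40.9) gained while 7 were lower. Their median CHH methylation was 4.62% in the Cvi x Ler embryo and 10.6% in the endosperm. Against the Ler x Cvi embryo, 20 of 80 gained (25%) and 7 were lower, and the medians were 9.33% and 10.1%. In Cvi x Col, 11 had enough calls, and 6 gained and 0 were lower, with medians of 8.85% and 23.2%. All windows gained in 0.783% of cases in Cvi x Ler, 0.425% against the Ler x Cvi embryo and 1.9% in Cvi x Col. Among windows with 10% CHH methylation or more in either library, 22 of 46 gained in Cvi x Ler, beside 9.86% of all such windows. Against the Ler x Cvi embryo 20 of 54 gained, beside 5.12%, and in Cvi x Col 6 of 10 gained, beside 9.9%. Whether the windows gained in both strains differ from those gained in 1 strain was not tested.

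The other hybrids gave shallow endosperm libraries. In Ler x Cvi, 19 of 141 gain windows were higher by 10 points and 19 were lower (all windows: 2.85% higher). In Col x Cvi, 36 of 177 were higher and 27 lower (all windows: 1.64% higher). In Cvi x Col, 50 of 250 were higher and 36 lower (all windows: 1.9% higher). A gain was thus present in a minority of gain windows in each hybrid, and falls of that size were present in each.

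Among windows with 10% CHH methylation or more in either library, the shares of gain windows that were higher and lower were 21.5% and 16.6% in Cvi x Ler, beside 9.86% and 40.2% of all windows. With the Ler x Cvi embryo in Cvi x Ler they were 13.4% and 16.0%, beside 5.12% and 33% of all windows. They were 16.5% and 16.5% in Ler x Cvi, beside 10.2% and 17.4%. In Col x Cvi they were 27.3% and 20.5%, beside 11.4% and 28.4%, and in Cvi x Col 25.3% and 18.2%, beside 9.9% and 30.1%. The share of gains in the gain windows lay above the background in all 4 hybrids, and in Ler x Cvi its interval, 10.8 to 24.4, began close to the background of 10.2%.

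**Figure D1:**
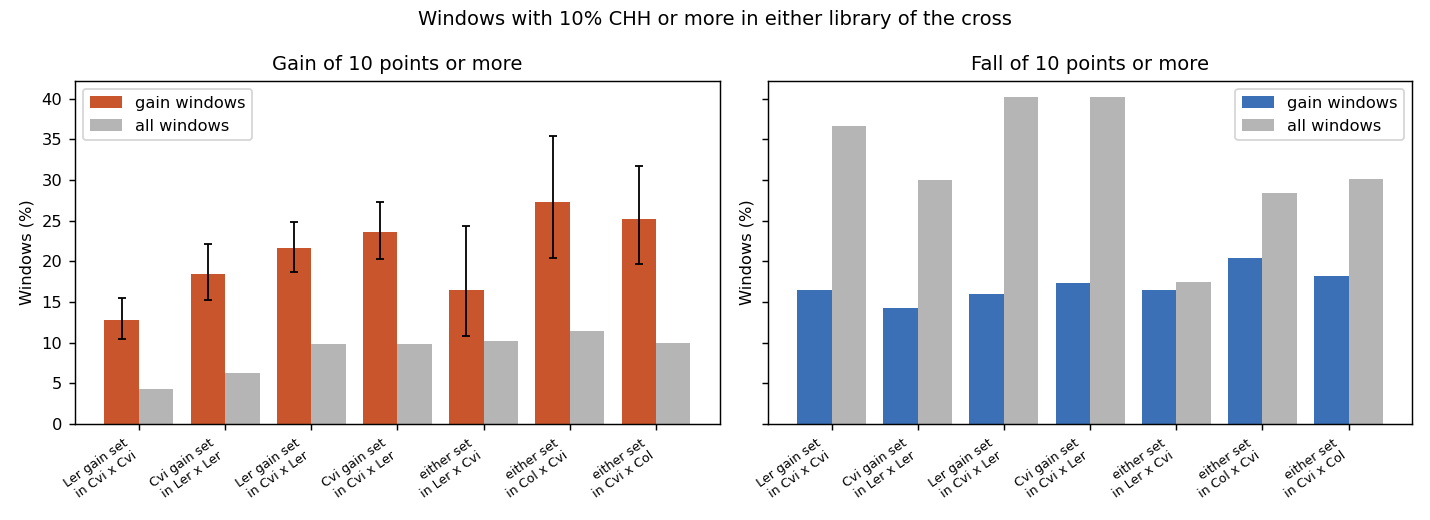
Share of windows (%) with CHH methylation at least 10 points higher (left) or lower (right) in endosperm, among windows with 10% CHH or more in either library, for gain windows (coloured bars, Wilson 95% intervals on the left) and all windows (grey bars). Gain windows chosen in Ler gained in 12.8% of cases in Cvi x Cvi and were lower in 16.5%, against 4.31% and 36.7% of all windows.

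Col gave no usable weighted values for most gain windows, since its endosperm library reached 50 calls in 28 of them. Of these 12 gained and 3 were lower, and 73 of 2250 windows (3.24%) gained among all those with enough calls. The deposited window means, which give each cytosine the same weight, covered 2460 gain windows in both Col x Col libraries. Of these, 384 (15.6%) were higher in endosperm and 629 (25.6%) lower, and 2.25% of all windows were higher. Their median was 12.3% in the Col x Col embryo and 6.67% in the endosperm. Among windows with 10% or more in either library the shares were 21.5% higher and 35.2% lower, beside 14.5% and 47.3% of all windows. No call minimum was applied to these means, and the Col x Col endosperm had a median of 15 CHH calls per window. By window means, then, the gain windows of the other strains were more often lower than higher in the Col x Col endosperm. The order was opposite in the 28 windows with enough calls.

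Across the 6 crosses other than Col x Col, a gain was found in 1 cross for 2918 of the gain windows, in 2 crosses for 356, in 3 crosses for 39 and in 4 crosses for 6. Few windows could be examined everywhere, since 11 had enough calls in all 6 crosses. Enough calls were present in only 1 cross for 836 gain windows and in only 2 crosses for 994. The counts therefore do not show how often a gain recurs where it could be seen, and no share of all windows is set beside them. In a comparison over windows with enough calls in all 10 deep libraries, the 833 Ler gain windows had medians of 7.87% in the Ler x Ler embryo and 21.7% in its endosperm, and between 7.58% and 12.5% in the other 8 libraries. The 583 Cvi gain windows had medians of 4.69% in the Cvi x Cvi embryo and 19% in its endosperm, and between 7.27% and 11.8% in the other 8. The embryo of the strain that chose the window was near or below the lowest of these and its endosperm above the highest, a pattern that choosing windows by the difference itself favours.

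The raised stretch was narrow in the libraries that chose the windows, a shape that choosing windows by the difference itself favours. What part of it came from that choice was not tested. Mean CHH methylation of Ler gain windows was 9.46% in the Ler x Ler embryo and 23.9% in the endosperm, and the mean difference of 14.4 points was 6.33 and 5.76 points in the windows 200 nt away, which share 100 nt with the gain window. In the windows 400 nt away, which share no base with it, the difference was 0.62 and 0.42 points. For Cvi gain windows the mean difference was 14.7 points at the window, 4.54 and 4.55 points at 200 nt, and -1.07 and -0.67 points at 400 nt. Mean methylation of gain windows was above that of their surroundings in all 6 libraries of Ler x Ler, Cvi x Cvi and Cvi x Ler except the embryo that chose them, where it was close to (Ler x Ler) or below (Cvi x Cvi) its neighbours. Merged where they touched, the 3319 windows formed 2707 regions, of which 2182 were a single window, 459 were 2 windows and 66 were longer. The longest was a run of 5 windows at chr1:11618601-11619700.

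**Figure D2:**
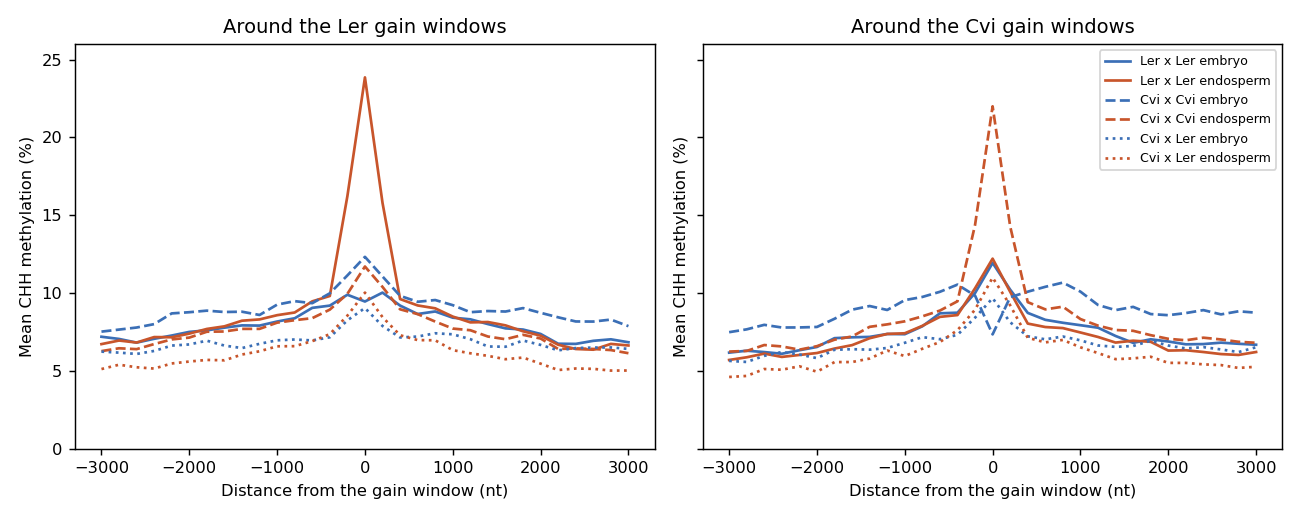
Mean CHH methylation (%) against distance (nt) from the Ler gain windows (left) and the Cvi gain windows (right) in embryo (blue) and endosperm (orange) of Ler x Ler (solid), Cvi x Cvi (dashed) and Cvi x Ler (dotted). The endosperm of the strain that chose the windows peaks at 23.9% and 22.0% and returns to the embryo level 400 nt away, while the libraries that did not choose them show low peaks in both tissues. Choosing windows by the difference itself favours a narrow peak.

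CG and CHG methylation of the same windows were not used by the rule, but they come from the same pairs of libraries, so their values in the choosing strain are given without a test. Most gain windows were heavily CG methylated. Of 1681 Ler gain windows with at least 15 CG calls in the embryo, 86.5% had 50% CG methylation or more, against 22.9% of all windows, and among 695 Cvi gain windows the share was 83.0% against 19.5%. Median CG methylation of Ler gain windows was 91.6% in the Ler x Ler embryo and 82.8% in the endosperm, and that of Cvi gain windows 88.9% and 66.2% in Cvi x Cvi. CHG methylation was 61.2% and 46.2% in Ler x Ler and 63.1% and 54.9% in Cvi x Cvi. CHH methylation was thus higher in the endosperm of these windows, as chosen, while the medians of the symmetric contexts over each set were lower. In the smaller classes with under 50% CG in the embryo, median CHG was higher in endosperm, as given below. The size of the median CG and CHG differences over the gain windows depended on the choice of windows. Where Fisher's exact test was also required of the gain, the median CG difference over both strains moved from -8.33 to -4.04 points. The CHG difference moved from -8.63 to -2.13 points.

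Restricted to windows with 50% methylation or more in the embryo, the median CG difference was -6.92 points for Ler gain windows beside -16.5 points for all windows, and -20.6 points for Cvi gain windows beside -33.0 points. For CHG the medians were -15.4 beside -25.6 points for the Ler set and -11 beside -22.0 points for the Cvi set. The Cvi x Ler hybrid, which did not choose the windows, had a CG difference of -8.64 points for Ler gain windows and -6.32 points for Cvi gain windows, beside -21.0 points for all windows, and a CHG difference of -31.6 and -31.4 points, beside -38.5 points. Against the Ler x Cvi embryo the CG differences were -9.27 and -8.89 points, beside -14.8 points, and the CHG differences -31.9 and -32.4 points, beside -36.6 points. The median loss in both symmetric contexts was smaller in gain windows than in methylated windows in general in these 3 crosses, a difference that was not tested. In Ler x Cvi, with few windows, the order was opposite in CHG, with -13.5 points in 74 gain windows beside -12 points.

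Single windows were tested in the strain that had not chosen them. A fall of 35 points or more in CG with an adjusted p under 0.01 by Fisher's exact test was found in Cvi x Cvi in 103 of 511 Ler gain windows (20.2%), against 39.2% of all windows with 50% CG or more in the embryo. In Ler x Ler it was found in 53 of 378 Cvi gain windows (14.0%), against 24.5%. For CHG the counts were 35 of 478 Ler gain windows in Cvi x Cvi (7.32%), against 16.3%, and 36 of 318 Cvi gain windows in Ler x Ler (11.3%), against 18.4%. All 4 shares lay below that of all methylated windows. The difference of shares itself was not tested, and the gain windows were more thinly covered than other windows in CHH.

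**Figure D3:**
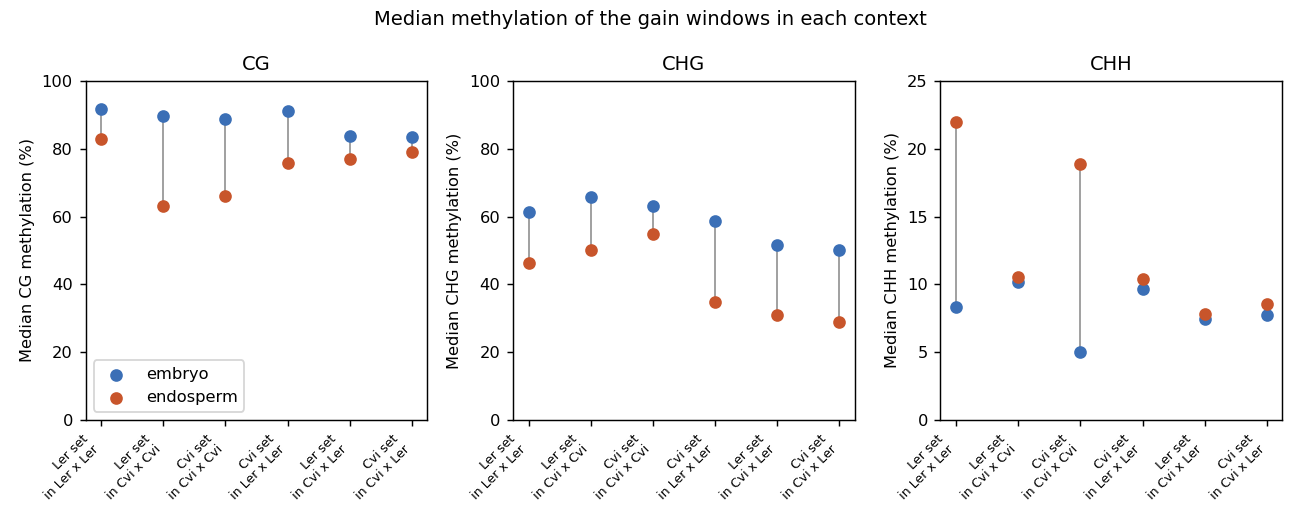
Median methylation (%) of Ler and Cvi gain windows in embryo (blue) and endosperm (orange) of Ler x Ler, Cvi x Cvi and Cvi x Ler, in the CG, CHG and CHH contexts (the CHH axis ends at 25%). CG and CHG medians are lower in endosperm in every pair shown, and CHH medians separate in the strain that chose the windows, with 8.35% and 22% in Ler x Ler and 5% and 18.9% in Cvi x Cvi, and lie close together elsewhere.

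A smaller class of gain windows had almost no CG methylation. Under 10% CG in the embryo was found in 167 Ler gain windows (9.93%, against 69.0% of all windows) and 97 Cvi gain windows (14.0%, against 75.9%). In the Ler class median CHH methylation was 0.515% in the embryo and 14.1% in the endosperm, with median CG of 5.88% and median CHG of 13.3% in the endosperm. In the Cvi class it was 0% and 14.9%, with median CG of 3.28% and CHG of 7.85% in the endosperm. Of 117 such Ler windows with calls in Cvi x Cvi, 13 gained there and 6 were lower, and of 74 such Cvi windows in Ler x Ler, 12 gained and 2 were lower. Among all windows with under 10% CG in the embryo of the choosing strain, 0.0815% gained in Cvi x Cvi and 0.111% in Ler x Ler. In the endosperm that chose the window, CHH methylation was above CG methylation in 109 of 987 Ler gain windows (11%) and 159 of 963 Cvi gain windows (16.5%), a description only, since a high CHH level in that library chose the windows.

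Gain windows lay in a different part of the genome from windows with the opposite difference. Pseudogenes, the annotation class that holds many transposon-derived genes, covered 42.9% of Ler and 37.4% of Cvi gain windows, compared with 7.35% and 13.3% of the windows that were lower in endosperm, 33.9% and 34.0% of windows with 10% CHH or more, and 5.35% and 6.14% of all windows. Windows outside annotated genes made up 41.2% and 45.5% of gain windows but 80.5% and 73.9% of the windows that were lower. Within 1 Mb of a centromere were 31.9% of Ler and 27.8% of Cvi gain windows, against 26.8% and 31.3% of windows with 10% CHH or more, 9.82% and 17.5% of the lower windows and 4.88% and 5.92% of all windows. By this measure gain windows lay close to methylated windows in general. A transposon annotation was not used here.

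The gain windows were also richer in G and C, with medians of 37.3% and 37%, than the windows that were lower, with 26.3% and 28%. They held a median of 83 CHH sites against 62 and 66. Sites of the form CWA, where W is A or T, which CMT2 prefers, made up a median of 28.2% and 28.7% of CHH sites in gain windows and 34.8% and 33.7% in the lower windows. All windows with enough calls had 29.6% and 29.5%. A median of 8.18% and 7.81% of the 32-mers of a gain window occurred elsewhere in the genome, against 14.5% and 13% for windows with 10% CHH or more, 11.9% and 11.2% for the lower windows and 0% for all windows. The median was thus lower in gain windows than in methylated windows in general. Coverage of 20 kb bins was uneven: 1403 of 5929 bins held a gain window, 178 held at least 5 and 12 held at least 10.

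Ranked by the smaller of its gains in the strains, the first region was a pseudogene of AGL28, AT2G25025, on the right arm of chromosome 2, 7.04 Mb from the centromere. In its window chr2:10644601-10644900, whose sequence is given first above, CHH methylation was 7.89% of 469 calls in the Ler x Ler embryo and 37.4% of 219 in the endosperm, and 6.62% of 136 calls in the Cvi x Cvi embryo and 39.0% of 164 in the endosperm. In the Cvi x Ler hybrid it was 4.68% of 342 calls in the embryo and 31.8% of 277 in the endosperm (Fisher's exact test, adjusted p = 4.15e-17). In Cvi x Col it was 12.1% of 340 calls in the embryo and 58.0% of 50 calls in the endosperm (Fisher's exact test, adjusted p = 9.95e-10). The remaining embryo libraries had 2.76% (Col x Col), 9.26% (Ler x Cvi) and 8.94% (Col x Cvi), and their endosperm libraries had under 50 calls. The 7 embryo libraries lay at or below 12.1% and the 4 endosperm libraries with calls at or above 31.8%. The values of Ler x Ler and Cvi x Cvi chose the window, so the endosperm libraries of Cvi x Ler and Cvi x Col alone stand apart independently of the choice, and the Cvi x Ler endosperm was also above the Ler x Cvi embryo (Fisher's exact test, adjusted p = 2.11e-12). CG methylation of the window was 92.5% of 40 calls in the Ler x Ler embryo and 70.4% of 27 calls in the Cvi x Ler embryo, and 62.2% of 45 calls in the Cvi x Ler endosperm.

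**Figure D4:**
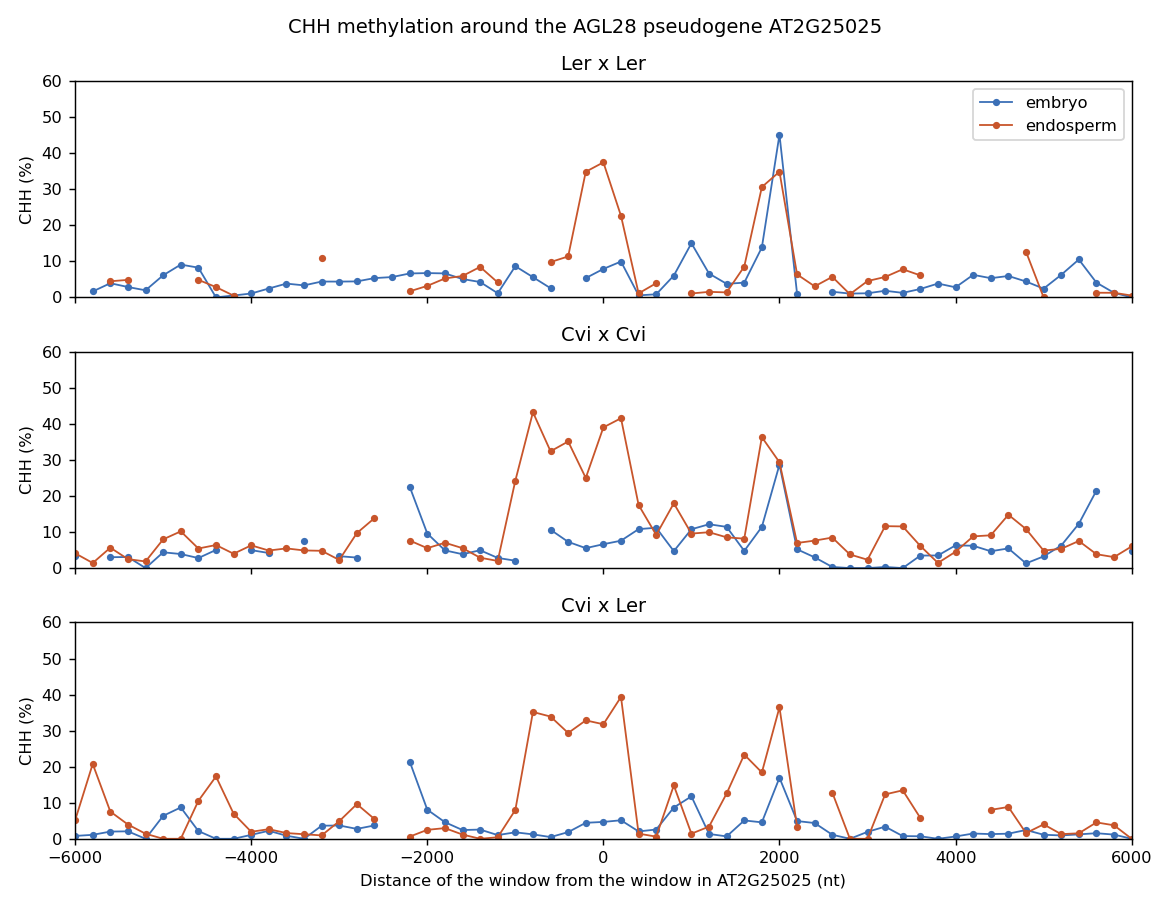
CHH methylation (%) of windows within 6000 nt of the window in AT2G25025, in embryo (blue) and endosperm (orange) of Ler x Ler, Cvi x Cvi and Cvi x Ler, with gaps where a library had under 50 calls. The endosperm stands above the embryo at the pseudogene in all 3 crosses, at 37.4%, 39.0% and 31.8%. Gain windows begin 200 nt before it in Ler x Ler and 1000 nt before it in Cvi x Cvi. Ler x Ler could not be compared at 400, 800 and 1000 nt before it, where 1 library had under 50 calls.

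The surrounding bin of 20 kb held 12 gain windows among 86 with enough calls, 4 from Ler x Ler and 12 from Cvi x Cvi, with 4 shared and 7 also higher in Cvi x Ler. At AT2G25025 the gain windows reached further in Cvi x Cvi than in Ler x Ler. At 400, 800 and 1000 nt before the window, however, 1 Ler x Ler library had under 50 calls. At 600 nt before the window Ler x Ler had 2.54% in embryo and 9.79% in endosperm. Cvi x Cvi had 10.6% and 32.4% there, and Cvi x Ler had 0.476% and 33.9%. The endosperm of the hybrid, like that of Cvi x Cvi, was thus high at 600 nt before the window. A further shared gain lay 1800 nt after it, where embryo and endosperm had 13.8% and 30.6% (Ler x Ler), 11.4% and 36.3% (Cvi x Cvi), and 4.56% and 18.4% (Cvi x Ler).

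A second window gained in both strains, chr3:12879001-12879300, was also an AGL28 pseudogene, AT3G31902, and the RefSeq annotation was therefore searched for others. It names 6, and this search was made after the values were seen. AGL28 itself encodes a type I MADS-box factor. Windows that touch the 6 copies had enough calls at 5 of them. In Ler x Ler 10 windows had calls and 7 gained, in Cvi x Cvi 12 had calls and 11 gained, and in Cvi x Ler, which did not choose the windows, 8 had calls and 7 gained. All windows gained in 0.571%, 0.463% and 0.783% of cases in these crosses. A gain in Ler x Ler or Cvi x Cvi is what chose the windows, so the counts of those crosses are descriptions. The search was prompted by 2 copies with named windows, and these gave 4 of the 8 windows in Cvi x Ler, of which 3 gained. The copies that did not prompt it gave the other 4, and 4 gained. Against the Ler x Cvi embryo 7 windows of the latter copies had calls and 6 gained. In Ler x Ler the prompting copies gained in 3 of 3 (AT2G25025) and 2 of 3 windows (AT3G31902). The others with calls gained there in 2 of 2 (AT3G32313) and 0 of 2 (AT3G31903). In Cvi x Cvi the prompting copies gained in 3 of 3 and 2 of 2 windows. The others gained there in 2 of 2 (AT3G32313), 1 of 2 (AT3G31903) and 3 of 3 (AT3G32371). No window at the 6 copies was 10 or more points lower in any of the 3 crosses.

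In Cvi x Ler the 3 windows of AT2G25025 had 4.44%, 4.68% and 5.14% in the embryo and 32.8%, 31.8% and 39.3% in the endosperm. The copy AT3G32313 had 8.28% and 2.86% in the embryo of 2 windows and 43.9% and 45.9% in the endosperm. The copies AT3G31903 and AT3G32371 had 5.17% and 3.17% in the embryo and 46.7% and 40.0% in the endosperm, each in 1 window. The exception was a window of AT3G31902, where the endosperm, at 7.95%, was below the embryo, at 13.3%. The copies are not independent. AT3G31903, which did not prompt the search, begins at chr3:12879906, close to the prompting copy AT3G31902, which ends at chr3:12879375. Neighbouring windows also overlap, and the copies share sequence. In the AT2G25025 window 29.4% of the 32-mers, and in the AT3G31902 window 40.5%, occurred more than once in the genome. The pair of windows had 5 of 281 20-mers in common. What part of the shared gain came from reads placed at the wrong copy was not tested.

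The other windows with large gains in both strains gave mixed results in the hybrid. At the pseudogene AT5G28700 (chr5:10757001-10757300) CHH methylation was 2.03% in the Ler x Ler embryo and 44.7% in the endosperm, and 18.0% and 45.3% in Cvi x Cvi, but 2.73% and 3.37% in Cvi x Ler. The Ler x Cvi embryo had 34.9% there, above the Cvi x Ler endosperm (Fisher's exact test, adjusted p = 3.6e-09). At chr5:12927601-12927900, near the chromosome 5 centromere, Ler x Ler had 17.5% and 41.8%, Cvi x Cvi had 7.69% and 32.2%, and Cvi x Ler had 13.2% and 3.65%, beside 11.3% in the Ler x Cvi embryo. A gain common to both parents was therefore not always present in their hybrid.

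At chr5:21161401-21161700, which covers an exon of AT5G52070, a gene for an Agenet domain protein, and the microRNA gene MIR4245, Ler x Ler had 18.5% and 37.9% CHH methylation, Cvi x Cvi had 26.6% and 46.2%, and Cvi x Ler had 4.93% and 51.2% (Fisher's exact test, adjusted p = 5.73e-26). The Cvi x Ler embryo was the lowest of the 7 embryo libraries, which otherwise ranged from 18.5% to 37.3%, and the Cvi x Ler endosperm was also above the Ler x Cvi embryo, at 24.4% (Fisher's exact test, adjusted p = 2.37e-10). This window lay on a chromosome arm and none of its 32-mers was repeated. Its CG methylation in the Cvi x Cvi endosperm was 15.2% of 33 calls, below its CHH methylation.

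At chr4:18256401-18256700, 633 nt upstream of AT4G39200, which encodes a ribosomal protein of the S25 family, Ler x Ler had 6.93% and 26.5% CHH methylation, Cvi x Cvi had 6.20% and 23.7%, and Cvi x Ler had 3.42% and 21.3% (Fisher's exact test, adjusted p = 6.56e-05). The other 4 embryo libraries had 11.8% (Col x Col), 6.78% (Ler x Cvi), 4.92% (Col x Cvi) and 6.41% (Cvi x Col). The 7 embryo libraries lay at or below 11.8% and the 3 endosperm libraries with calls at or above 21.3%, of which that of Cvi x Ler alone did not choose the window. It was also above the Ler x Cvi embryo (Fisher's exact test, adjusted p = 7.96e-08). None of the 32-mers of this window was repeated.

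The remaining 4 named windows with gains in both strains lay outside annotated genes. At chr3:12608601-12608900, 8168 nt upstream of the transporter gene ABCG38, Cvi x Ler had 20.2% and 45.3%, and the Ler x Cvi embryo had 18.4%. At chr2:5093401-5093700 Cvi x Ler had 10.1% of 69 calls and 38.3% of 366, but the Ler x Cvi embryo, with 44.9% of 767 calls, was above this endosperm, so that a gain there rests on the Cvi x Ler embryo. At chr1:14139601-14139900 the Cvi x Ler values were 18.2% and 26.3%, and the Cvi x Col values were 25.8% and 64.0% (Fisher's exact test, adjusted p = 2.73e-13). At chr3:12242801-12243100 the direction was opposite in Cvi x Ler, with 50.8% of 65 calls in the embryo and 32.5% in the endosperm (Fisher's exact test, adjusted p = 0.122). Of the 9 named windows gained in both strains with calls in Cvi x Ler, 5 were higher there by 10 points or more and 1 was lower. Against the Ler x Cvi embryo 4 were higher and 1 was lower, the latter at AT5G28700.

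**Figure D5:**
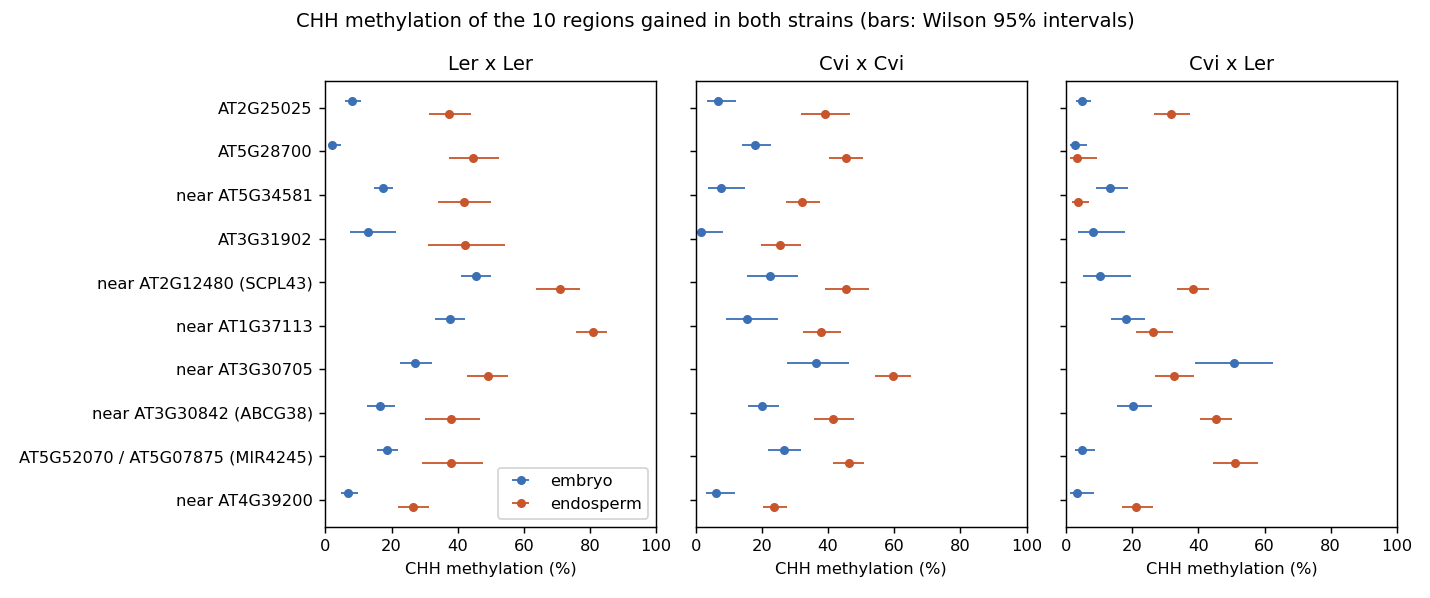
CHH methylation (%) in embryo (blue) and endosperm (orange) of Ler x Ler, Cvi x Cvi and Cvi x Ler at the 10 named windows gained in both strains, each labelled by the gene it overlaps or lies nearest to. Bars are Wilson 95% intervals for counting error, and points with under 50 calls are left out. Tissues are apart in both strains by choice of the windows, and in Cvi x Ler the AT2G25025 window has 4.68% and 31.8% while the AT5G28700 window has 2.73% and 3.37%.

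Among windows with at least 100 calls in both tissues and separate intervals, the largest gain in Ler x Ler, with 23.8% of 126 calls in the embryo and 75.3% of 352 in the endosperm, lay at chr3:14762201-14762500, 1571 nt upstream of CHR38 (AT3G42670), which encodes CLSY1, a chromatin remodeller that helps RNA polymerase IV start RNA-directed DNA methylation. Cvi x Cvi had 12.8% and 9.04% there. Col x Col, which had enough calls at this window, had 25% in the embryo and 72.4% of 127 calls in the endosperm (Fisher's exact test, adjusted p = 1.35e-20). The Col x Col endosperm, however, had 0 CG and 0 CHG calls there, while its embryo had 189 and 45. The Col libraries were thus not read over the same stretch of the window, which opens with a CT repeat in the reference. A gain in CHH percent was found in Ler and Col and not in Cvi. Whether Col gained at the same cytosines was not tested. CG methylation in Ler x Ler was 94.6% in the embryo and 66.1% in the endosperm.

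At chr5:10949001-10949300 CHH methylation was 54.5% in the Ler x Ler embryo and 100% of 129 calls in the endosperm (interval from 97.1). The first part of the reference sequence of this window consists largely of GAA repeats. The Col x Col embryo had 55.6% and the Cvi x Ler embryo 11%, and no other endosperm library reached 50 calls. At chr4:1509401-1509700, 1896 nt upstream of AT4G03420, the values were 31.2% and 69.4% in Ler x Ler and 2.37% and 28% in Cvi x Ler (Fisher's exact test, adjusted p = 6.76e-09). The Ler x Cvi embryo had 28.9% and the Col x Cvi embryo 0.87% at this window, so the embryo level varied with the cross.

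In Cvi x Cvi 4 of the 6 windows with the largest gains under the same conditions lay in coding exons. Protein-coding genes covered 15.1% of Cvi gain windows and 58.0% of all windows with enough calls in Cvi x Cvi. The largest was in a coding exon of AT5G45450 (chr5:18415801-18416100), annotated as an oligopeptide transporter, with 17.3% of 150 calls in the embryo and 65.6% of 375 in the endosperm. Cvi x Ler had 1.14% and 0% there, where 0 of 67 calls allow up to 5.42% (Wilson). In Cvi x Col the values were 5.99% and 4.29%. The gain was thus not seen in either hybrid with a Cvi mother.

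CG methylation of the AT5G45450 window was 58.5% of 65 calls in the Cvi x Cvi endosperm and CHG methylation 18.8% of 16 calls. Coding exons of 3 more genes were among these windows. In AT5G37420 (chr5:14842001-14842300) CHH methylation was 0% of 180 calls in the Cvi x Cvi embryo and 39.3% of 601 in the endosperm. In AT2G22510 (chr2:9569201-9569500), a gene for a hydroxyproline-rich glycoprotein, it was 0.971% and 40.0%. In AT2G26940 (chr2:11496601-11496900), a zinc finger gene, it was 0.69% and 39.5%. CG methylation was 0% in the Cvi x Cvi endosperm at AT2G22510 (15 calls) and AT2G26940 (53 calls), CHG methylation was 0% at AT5G37420 and AT2G22510 and 3.17% at AT2G26940, and AT5G37420 had no CG calls in that library. Ler x Ler had 1.63% or less in both tissues at all 3.

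Some hybrid embryos had methylated CHH calls at the same exons. At AT5G37420 the Ler x Cvi embryo had 25.9%, the Col x Cvi embryo 21.6% and the Cvi x Ler embryo 15.7%, but the Cvi x Ler and Col x Cvi endosperm had 0%. At AT2G22510 the same embryos had 17.2%, 32.8% and 14%, while no methylated CHH call was found among 196 in the Cvi x Ler endosperm, which allows up to 1.92% (Wilson). At AT2G26940 the order was opposite, with 0%, 0% and 0.806% in these embryos and 9.39% in the Cvi x Ler endosperm. The Cvi x Col embryo, also with a Cvi parent, had 0.403% of 248 calls at AT5G37420, 0.407% of 246 at AT2G22510 and 0% of 200 at AT2G26940. Methylated CHH calls with little or no CG or CHG methylation were therefore present in these exons in some libraries with a Cvi parent, in either tissue. Their source was not tested.

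A window of the pseudogene AT5G15990 (chr5:5218201-5218500) had 6.15% in the Cvi x Cvi embryo and 44.0% in the endosperm, with 18.4% and 22.0% in Ler x Ler and 5.36% and 6.17% in Cvi x Ler. At chr3:15000801-15001100, 5512 nt upstream of AT3G42940, Cvi x Cvi had 11.5% and 51.1%. The Ler x Ler values were 51.2% and 40.2%, those of Cvi x Ler 44.6% and 31.6% and those of Ler x Cvi 50.5% and 51.5%. The Col x Col embryo had 6.91% and the Col x Cvi embryo 59.8%, so that embryos alone ranged from 6.91% to 59.8% at this window.

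The gain windows with the largest difference in the Cvi x Ler hybrid were chosen for that difference, so it is given without a test. At the pseudogene AT3G33072 (chr3:13633001-13633300) the Cvi x Ler embryo had 10.4% of 183 calls and the endosperm 92.9% of 408. Ler x Ler had 89.4% and 100%, and Col x Col had 55.1% and 99.1%. The other hybrid embryos had 93.4% (Ler x Cvi), 76.9% (Col x Cvi) and 86.2% (Cvi x Col), so the Cvi x Ler embryo alone was low. The reference sequence of this window is almost wholly a repeat of CCCTAAA, and 94.1% of its 32-mers occurred elsewhere in the genome. The Cvi x Ler embryo had 44 CG calls there, and no other library had CG calls. Whether the reads of each library belong to this window was not tested. The same embryo was also the lowest at chr4:7101601-7101900, with 4.35% in Cvi x Ler against 33.3% to 84.6% in the other embryos with calls.

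The receptor-like protein gene RLP55 (AT5G45770) held 2 of these windows, which overlap and share calls. At chr5:18563601-18563900 CHH methylation was 66.7% in the Cvi x Cvi embryo and 85.7% in the endosperm, and 6.16% and 77.6% in Cvi x Ler. CG methylation was 1.43% of 70 calls in the Cvi x Cvi endosperm and 0% of 32 calls in the Cvi x Ler endosperm. The Ler x Cvi embryo had 33.3% CHH and 0% CG methylation. The Cvi x Cvi embryo had no CG calls in this window and 0% of 88 CG calls in the overlapping window, where its CHH methylation was 60%. High CHH without CG methylation was thus present at RLP55 in each library with a Cvi parent that had enough calls, apart from the Cvi x Ler embryo. At chr1:28865401-28865700, in a coding exon of AT1G76880, Cvi x Cvi had 1.39% and 31.2%, Cvi x Ler 5.81% and 63.9%, and Ler x Ler 0.413% and 0.901%.

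Of the 6 windows that gained in 4 crosses, 1 was the window of AT2G25025 described above, with gains of 27.1 points or more in each. At chr3:13584801-13585100 the differences were 22.3 points (Ler x Ler), 11 points (Cvi x Cvi), 19.5 points (Cvi x Ler), 44.4 points (Cvi x Col) and 2.06 points (Ler x Cvi). At chr2:10358001-10358300 they were 10.9, 14.6, 21.2 and 17.3 points in Ler x Ler, Cvi x Cvi, Cvi x Ler and Cvi x Col. At chr4:7564801-7565100 Ler x Ler had a difference of 0.03 points, Cvi x Cvi 21.3, Cvi x Ler 4.48, Ler x Cvi 19.3, Col x Cvi 33.8 and Cvi x Col 16.4. The last window was therefore higher in endosperm in every cross examined that had a Cvi parent, although in Cvi x Ler the gain was under 10 points. At chr1:12091601-12091900 Cvi x Cvi had 16.3 points, Ler x Cvi 16.1, Col x Cvi 21.4 and Cvi x Col 15.5. Cvi x Ler had -4.19 points there and Ler x Ler -3.78. At chr1:10114001-10114300 Ler x Ler had 4.30 points, Cvi x Cvi 16.7, Cvi x Ler 55.8, Col x Cvi 17.9 and Cvi x Col 29.9.

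Genes that act in DNA methylation or are known for imprinting were looked up among the genes near gain windows. Of 27275 protein-coding genes with a window tested, 1295 (4.75%) had a gain window inside or within 2 kb. Of 19 genes of RNA-directed DNA methylation 2 did (10.5%), CHR38, described above, and SUVH9, whose protein binds methylated DNA and recruits RNA polymerase V. The SUVH9 window (chr4:7826801-7827100) had 1.72% in the Ler x Ler embryo and 15.1% of 73 calls in the endosperm, and 1.37% and 18.2% in Cvi x Ler. None of 12 genes for methyltransferases, demethylases and related chromatin proteins had one. Of 9 genes known for imprinting or promoter silencing 1 did (11.1%), the homeobox gene HDG9, with a window 1438 nt downstream (chr5:5701401-5701700). There CHH methylation was 29.4% of 51 calls and 40.3% of 129 in Cvi x Cvi, but 26.7% and 7.10% in Ler x Ler.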

How the data were processed

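Whole-genome bisulfite libraries of embryo and endosperm were analysed for 7 crosses, 1 library per group. Per the study's methods, the authors mapped reads with Bismark (version not given in the sources used here) to TAIR10 for Col and Cvi, with a Cvi-substituted sequence for reads left over, and to a Ler genome whose positions were converted to TAIR10, removed duplicate reads and summarised cytosines in windows of 300 nt overlapping by 100 nt. The deposited weighted summaries give each window's count of methylated and of unmethylated calls, with at least 5 CHH calls a window. The deposited window means give an unweighted percent. No value was normalised between libraries.

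Percentages were recomputed from the counts of the weighted files. Windows needed 50 CHH calls, or 15 CG or CHG calls, in both libraries. The window means of Col x Col were taken without a call minimum. Calls used a two-sided Fisher's exact test with Benjamini-Hochberg adjustment over all windows tested (SciPy 1.17.1, NumPy 2.4.6, pandas 2.3.3, Python 3.11.15), which was tested on simulated data. Wilson 95% intervals cover counting error only, since calls on 1 read or PCR copy are not independent. Annotation and sequence came from TAIR10.1 (RefSeq), whose nuclear chromosomes are those of TAIR10. A centromere was placed at the longest internal run of unknown bases.

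The gain windows, gene lists and tests were chosen with earlier results of these data known. Named windows were, by a fixed rule, the 10 regions with the largest smaller gain in both strains, the 6 with the largest gain in each strain among windows with 100 calls and separate intervals, the 6 gain windows with the largest difference in Cvi x Ler, and any window at a listed gene. Sequences were printed for 8 of them by that rule and for the AT3G31902 window in addition. The AGL28 copies, the search for displaced profiles, the windows gained in 4 crosses and the limit of 10% CHH methylation were chosen after seeing values. Alternatives were the call minimum, the gain, the window means, every second window, no windows near centromeres, a depth limit, Fisher's exact test and another embryo for Cvi x Ler.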

Additional observations from a re-analysis of the deposited data

Results flagged for a closer look

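At 4 of the windows named in the report the 2 strains differed in opposite directions, and the difference between strains was not tested. Each strain has 1 library per tissue. At chr5:14022601-14022900, in the pseudogene AT5G35880, the difference in CHH methylation, endosperm minus embryo, was 37.9 points in Ler x Ler and -33.7 points in Cvi x Cvi, where the embryo had 52 calls. At chr5:13540801-13541100, 8035 nt downstream of the methyl-CpG-binding domain gene MBD12, it was 19.8 points in Ler x Ler and -53.7 points in Cvi x Cvi, where the embryo had 53 calls. At chr3:15000801-15001100 it was -11 points in Ler x Ler and 39.5 points in Cvi x Cvi, with at least 234 calls in each library. At chr5:5701401-5701700, near HDG9, it was -19.6 points in Ler x Ler and 10.9 points in Cvi x Cvi, where the embryo had 51 calls.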

How the results depend on the processing

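Of 73 values under other settings, 50 moved little and 23 moved by more than counting error or 1.5 times. A turn of direction could be recorded only for the median CG and CHG differences, and 0 of these turned. A minimum of 100 calls left 740 Ler and 614 Cvi gain windows, of which 12.6% of the Ler windows gained in Cvi x Cvi, 16.7% of the Cvi windows in Ler x Ler and 14.4% of both in Cvi x Ler, with median CG and CHG differences of -9.67 and -7.07 points (-8.33 and -8.63 as reported, over both strains). A gain of 15 points left 601 and 443 windows, repeated in the other strain in 6.58% and 8.71%, with a CHG difference of -6.12 points. Every second window, free of overlap, gave 983 and 738. Without windows within 1 Mb of a centromere the CG and CHG differences were -7.24 and -6.80 points. Requiring Fisher's exact test left 774 and 538 windows, with CG and CHG differences of -4.04 and -2.13 points, and 15% gained in Cvi x Col. Without windows over 3 times the median depth 14% gained in Col x Cvi, and Ler x Cvi gave no window. With the Ler x Cvi embryo in Cvi x Ler, 8.44% gained, and falls outnumbered gains. Fewer windows or calls enter by construction; the cause of the other shifts was not tested. The labels give no replicate numbers to pair, and a fit with crosses as blocks was not run.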
